A study of Rattus norvegicus with 12 samples.

Results

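The circadian clock genes followed here were Per1, Per2, Per3, Bmal1 (also written Arntl), Clock, Npas2, Nr1d1, Nr1d2, Dbp and Tef. They were taken as every array probe whose RefSeq accession maps to 1 of these symbols, which gave 24 probes for 10 genes, out of 61573 probes and 15284 named genes on the array. Per3 had 5 probes, Dbp 4, Clock and Npas2 3 each, Per1, Tef and Bmal1 2 each, and Per2, Nr1d1 and Nr1d2 1 each. Each of the 24 cleared the background in the 3 animals of some group, so each was tested. Where a gene had several probes, the brightest stood for it and the others were read separately. Genes outside these 10 were read from their brightest probe alone.

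RNA of the renal cortex was hybridised to 1-colour Agilent arrays, 1 array for each of 12 animals. All animals were male Crl:CD(SD) Sprague-Dawley rats bought at 5 weeks of age and kept under 12 h of light and 12 h of dark. In each of 2 experiments, 3 rats received corn oil and 3 received bromodichloromethane (BDCM, a chlorination by-product of drinking water) at 200 mg/kg/day for 4 weeks. All were bled 24 h after the last dose, under CO2-O2 inhalation in the experiment coded B92 and under isoflurane in the experiment coded B103. The sources used here give neither the clock time of killing nor the order in which animals were sampled, and both matter for rhythmic transcripts. The replicates are labelled as biological, and groups were compared over animals.

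The mammalian clock is a loop of transcription that runs in nearly every cell, including those of the nephron. BMAL1 with CLOCK, or with its relative NPAS2, switches on the Per genes, Nr1d1, Nr1d2, Dbp and Tef through E-box sequences. PER proteins, together with CRY proteins, then block the activator, while NR1D1 and NR1D2 (REV-ERB alpha and beta) repress Bmal1 and Npas2, so that Bmal1 RNA peaks roughly opposite to Dbp and Nr1d1 RNA. DBP and TEF act on D-box sequences of further rhythmic genes, in kidney among them genes of salt, water and drug handling. Per1 and Per2 also respond to glucocorticoids and cyclic AMP.

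The promoters of Per2, Tef and Bmal1 are shown because Per2 and Tef are 2 of the 3 members that fell with BDCM and Bmal1 encodes a subunit of their activator. Each is the RefSeq window of 250 bases before and 50 after a start site in rat build GRCr8, written 5′ to 3′ on the gene's strand. Capitals mark the motifs found by a search of both strands for the E-box CACGTG, the E-prime box CACGTT, the receptor core AGGTCA and the D-box TTATGTAA or TTACGTAA, no 2 of which overlapped in these windows.
Per2, chr9:99496944-99497243, minus strand: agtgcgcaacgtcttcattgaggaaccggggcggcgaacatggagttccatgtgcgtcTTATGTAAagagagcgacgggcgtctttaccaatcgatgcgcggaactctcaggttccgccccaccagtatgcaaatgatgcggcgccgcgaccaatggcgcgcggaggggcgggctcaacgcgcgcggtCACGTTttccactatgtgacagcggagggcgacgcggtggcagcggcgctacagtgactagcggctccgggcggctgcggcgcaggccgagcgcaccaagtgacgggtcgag
Tef, chr7:115206577-115206876, plus strand: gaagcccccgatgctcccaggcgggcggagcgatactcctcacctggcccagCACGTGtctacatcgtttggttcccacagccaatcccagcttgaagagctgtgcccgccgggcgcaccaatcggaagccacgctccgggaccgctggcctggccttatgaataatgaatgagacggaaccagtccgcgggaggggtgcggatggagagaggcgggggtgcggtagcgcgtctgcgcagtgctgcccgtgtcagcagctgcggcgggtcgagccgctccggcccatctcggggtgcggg
Bmal1, chr1:176766078-176766377, plus strand: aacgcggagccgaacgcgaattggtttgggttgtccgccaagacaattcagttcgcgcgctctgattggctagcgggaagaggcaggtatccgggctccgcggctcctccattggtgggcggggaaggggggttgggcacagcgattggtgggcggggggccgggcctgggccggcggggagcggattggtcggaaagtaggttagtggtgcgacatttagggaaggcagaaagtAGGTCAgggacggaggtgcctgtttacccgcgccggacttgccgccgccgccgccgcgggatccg

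The Per2 window holds a D-box 192 bases and an E-prime box 62 bases before the start site. The Tef window holds an E-box 198 bases before its start site, which lies 9647 bases inside the annotated gene. The Bmal1 window holds an AGGTCA receptor core 15 bases before the start. Over the 12 windows listed for the 10 genes, the E-box occurred for Nr1d1 and Tef, the E-prime box for Nr1d1 and Per2, the receptor core for Bmal1 and Nr1d2, and the D-box for Per2. Among all 33469 RefSeq rat promoter windows of this length, 6.42% hold the E-box, 4.83% the E-prime box, 16.2% the receptor core and 1.01% the D-box. The window listed for Per1 starts at a site 5374 bases inside the gene and holds none of the 4 motifs. A motif in a window is a match of letters, not a measured binding site.

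On each array, 67.4 to 72.5% of non-control probes were well above background. Values are log2 levels, meaning log2 of the processed signal divided by the array's 75th percentile, so that 0 equals that percentile, and a difference of 1 is 2-fold. Levels of different probes are not set against each other. In the BDCM groups 7 of 8 proximal tubule markers were lower in the mean of both experiments, and the log2 of their mean signal ranged from 6.89 to 6.98 with oil and 6.16 to 6.48 with BDCM under CO2-O2, and from 7.09 to 7.20 and 6.12 to 6.67 under isoflurane. In the same mean, 4 of 5 podocyte and glomerulus markers were lower, as were 2 of 5 collecting duct markers (1 was higher), 1 of 4 endothelial markers and 1 of 3 thick limb and distal tubule markers, while none of 6 leukocyte markers passed. Of all probes tested, 20.4% were lower and 17.9% higher in this mean. Of 4 tubular injury markers, Havcr1 and Spp1 were higher, at 4.69 ± 0.50 and 3.28 ± 0.36 (log2 difference ± SE), and Lcn2 (0.32 ± 0.32) and Vcam1 (-0.24 ± 0.19) did not pass. Liver transcripts were uneven: albumin RNA lay between -1.44 and 1.66 in the CO2-O2 animals and between -8.07 and -0.69 in the isoflurane animals, highest there in BDCM animal 1, and the liver enzyme gene Tat was not well above background on any array. Of the 7 liver markers tested, 1 was higher and 2 were lower in the mean. Ttr spread nearly as widely as albumin (-8.31 to 1.17), and Serpina1, Apoa2 and Apoh less so. Ahsg (-1.90 to -0.93) and F2 (1.83 to 3.28) varied least of the 7. In these bulk samples, fewer cells of a type and less RNA per cell cannot be told apart, and the part of these marker differences in the clock gene results was not tested.

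Of the 10 clock genes 3 were lower with BDCM, and none was higher. Per1 fell in both experiments, Per2 and Tef fell in the isoflurane experiment and in the mean of both, and Bmal1 had the 1 positive estimate, which did not pass. The median BDCM difference of the 10 genes was -0.32 under CO2-O2, -0.40 under isoflurane and -0.34 in the mean, against a median of -0.04 over all 43275 probes tested in each. At an adjusted p (limma, Benjamini and Hochberg over all probes tested) under 0.05, 1 of 10 genes was lower under CO2-O2, where 9.89% of all probes were lower, so this share is near the background (none was higher, against 9.86%). The same count was 3 of 10 under isoflurane, where 12.7% of all probes were lower and 13.1% higher, and 3 of 10 in the mean, where 20.4% were lower and 17.9% higher. Counted by probe, as these shares are, 1 of 24 clock probes was lower under CO2-O2, 5 of 24 under isoflurane and 5 of 24 in the mean. In the mean the share by probe is near the background as well. The groups did not overlap for 2 of 10 genes under CO2-O2 and 4 of 10 under isoflurane, against 39.6% and 43.1% of all probes, and for 2 of 10 in both experiments, against 26.5%, so separation of groups was no more common among clock genes than on the array as a whole.

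**Figure D1:**
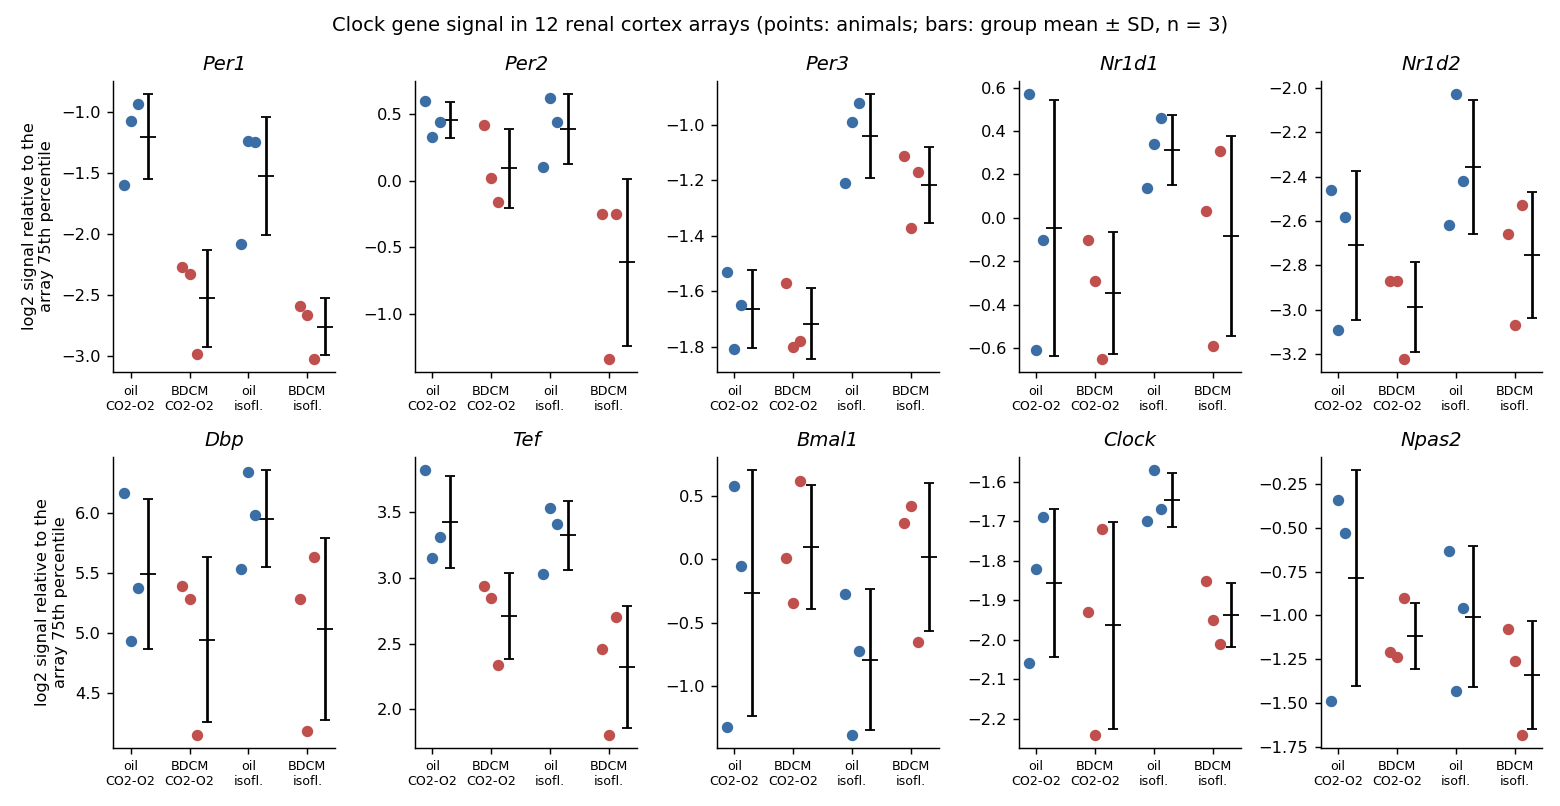
Log2 level of each clock gene (y axis, relative to the array's 75th percentile) in 12 animals grouped by treatment and anaesthesia. Points are animals and bars are group means ± SD (n = 3). Per1 lies between -2.08 and -0.94 in oil animals and between -3.02 and -2.27 in BDCM animals, while Bmal1 and Dbp spread widely inside each group.

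Per1, the immediate-early member of the period repressors, had log2 levels of -1.6, -1.08 and -0.94 in oil animals 1 to 3 of the CO2-O2 experiment, and -2.27, -2.33 and -2.98 in the BDCM animals. Under isoflurane the levels were -2.08, -1.24 and -1.25 with oil and -2.59, -2.66 and -3.02 with BDCM. Every BDCM animal lay below every oil animal, across the experiments as well as within them, with oil animal 1 of the isoflurane experiment the lowest control. The difference was -1.32 ± 0.28 (SE; limma adjusted p = 0.00957) under CO2-O2 and -1.23 ± 0.28 (limma adjusted p = 0.0099) under isoflurane. Their mean was -1.27 with a 95% confidence interval of -1.71 to -0.84 (limma adjusted p = 0.000712), which is 2.42-fold lower. The dimmer Per1 probe differed by -0.37 ± 0.16 in the mean and did not pass (limma adjusted p = 0.0938), so the size and the call rest on 1 of 2 probes.

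Treatment was partly split by slide. CO2-O2 BDCM animals 1 and 3 were on a slide without oil animals, scanned on another day. Isoflurane oil animals 1 and 2 were on a slide without BDCM animals, and BDCM animal 3 had its own slide and scan day. Treatment, slide and scan day therefore cannot be fully told apart in the main BDCM differences of any clock gene. With slide as a fixed block, the comparison rests on 1 treated animal in the CO2-O2 experiment and 1 control in the isoflurane experiment. The Per1 difference was then -1.12 (limma adjusted p = 0.131) and -1.37 (limma adjusted p = 0.103), and it passed in the mean of both at -1.25 ± 0.30 (limma adjusted p = 0.0264). With scan day as a block, an alternative added after the data were seen, the CO2-O2 difference was again -1.12 (limma adjusted p = 0.112).

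Per2, the second period repressor, had levels of 0.60, 0.33 and 0.44 in the CO2-O2 oil animals and 0.42, 0.02 and -0.16 in the BDCM animals. Under isoflurane they were 0.10, 0.62 and 0.44 with oil and -0.25, -1.34 and -0.25 with BDCM. The groups overlapped under CO2-O2 and not under isoflurane, where BDCM animal 2 was the lowest of all 12. Per2 fell by 1.00 ± 0.28 under isoflurane (limma adjusted p = 0.0258) and by 0.68 ± 0.20 in the mean (limma adjusted p = 0.0208), while the CO2-O2 difference of -0.36 ± 0.28 did not pass (limma adjusted p = 0.40). The 2 effects differed by -0.64, which did not pass either (limma adjusted p = 0.944). The isoflurane call was lost without oil animal 2 (limma adjusted p = 0.0859), oil animal 3 (limma adjusted p = 0.0689) or BDCM animal 2 (limma adjusted p = 0.0521), and without BDCM animal 2 the difference was -0.64. Slide as a fixed block ended both calls, under isoflurane (-1.23; limma adjusted p = 0.145) and in the mean (-0.83; limma adjusted p = 0.0945).

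Per3, the period gene with 5 probes, gave no single answer for BDCM. On its brightest probe the levels were -1.53, -1.81 and -1.65 with oil and -1.57, -1.80 and -1.78 with BDCM under CO2-O2, and -1.21, -0.99 and -0.92 with oil and -1.11, -1.37 and -1.17 with BDCM under isoflurane. Treatment groups overlapped in both experiments, and the mean difference was -0.11 ± 0.08 (limma adjusted p = 0.296). The 4 dimmer probes had mean differences between -0.74 and 0.09, of which 1, at -0.59 ± 0.20, passed (limma adjusted p = 0.0353), and another passed under isoflurane alone at -1.24 ± 0.40 (limma adjusted p = 0.0452), where it was well above background in 2 of 3 oil and 1 of 3 BDCM animals. The probe at 0.09 carried 1 discordant array, with a level of -1.40 in BDCM animal 2 under CO2-O2 against -4.96 to -3.78 in the other 11 animals.

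Tef, a D-box activator and output of the loop, had levels of 3.82, 3.15 and 3.31 in the CO2-O2 oil animals and 2.94, 2.85 and 2.34 in the BDCM animals. Under isoflurane they were 3.03, 3.53 and 3.41 with oil and 2.46, 1.81 and 2.70 with BDCM. All BDCM animals lay below all oil animals of their experiment, and BDCM animal 2 under isoflurane was again the lowest. The mean difference was -0.86 (95% confidence interval -1.27 to -0.44; limma adjusted p = 0.00505), 1.81-fold lower. The second probe gave the same -0.86 in the mean (limma adjusted p = 0.00585). Its groups overlapped under CO2-O2 (-0.66 ± 0.27; limma adjusted p = 0.12) and not under isoflurane (-1.07 ± 0.27; limma adjusted p = 0.0177). On the brightest probe the isoflurane difference of -1.0 ± 0.26 passed (limma adjusted p = 0.0204). The CO2-O2 difference of -0.72 ± 0.26 on that probe did not (limma adjusted p = 0.0843), with no difference between them that passed (-0.28; limma adjusted p = 0.957). Leaving out oil animal 2, oil animal 3 or BDCM animal 2 under isoflurane ended the isoflurane call (limma adjusted p = 0.0699, 0.0608 and 0.0748), leaving out BDCM animal 2 also brought the CO2-O2 difference past the threshold (limma adjusted p = 0.046), and slide as a fixed block ended the call in the mean (-0.93; limma adjusted p = 0.0543).

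Dbp, the paralogue of Tef and an output of large amplitude in many tissues, had levels of 6.16, 4.93 and 5.37 with oil and 5.39, 5.28 and 4.15 with BDCM under CO2-O2. Under isoflurane they were 5.53, 6.34 and 5.98 with oil and 5.28, 4.18 and 5.63 with BDCM. Oil and BDCM animals overlapped in both experiments: BDCM animals 1 and 2 lay above oil animal 2 under CO2-O2, and BDCM animal 3 lay above oil animal 1 under isoflurane. BDCM animal 3 under CO2-O2 and BDCM animal 2 under isoflurane were the lowest of the 12. The mean difference was -0.73 ± 0.33 (95% confidence interval -1.46 to -0.01) and did not pass after adjustment (limma adjusted p = 0.103). The 4 probes ran from -0.73 to -0.67 and none passed, so a 1.66-fold lower estimate was not separated from animal-to-animal spread.

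Nr1d1 and Nr1d2, the REV-ERB repressors of Bmal1, had mean differences of -0.35 ± 0.21 (limma adjusted p = 0.224) and -0.34 ± 0.15 (limma adjusted p = 0.101). Nr1d1 levels ran from -0.61 to 0.57 in CO2-O2 oil animals, -0.65 to -0.10 in CO2-O2 BDCM animals, 0.14 to 0.46 in isoflurane oil animals and -0.59 to 0.31 in isoflurane BDCM animals. The groups overlapped for both genes in both experiments. Without CO2-O2 oil animal 2, Nr1d2 passed in the mean at -0.43 (limma adjusted p = 0.0396), and without CO2-O2 oil animal 1 the Nr1d1 difference under CO2-O2 was 0.01.

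Bmal1, the obligate partner of the activator complex, had levels of -1.32, 0.58 and -0.05 with oil and 0.01, -0.34 and 0.62 with BDCM under CO2-O2. Under isoflurane they were -0.27, -1.38 and -0.72 with oil and 0.29, 0.42 and -0.65 with BDCM. The control groups alone spanned 1.90 and 1.11 log2 units, and treatment groups overlapped in both. The mean difference was 0.59 ± 0.35 (95% confidence interval -0.19 to 1.36; limma adjusted p = 0.214), and the second probe gave 0.35 ± 0.35. Under CO2-O2 the estimate of 0.36 turned to -0.17 without oil animal 1, the animal with the lowest level there.

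Clock and Npas2, the partners of BMAL1, did not pass either. Clock differed by -0.20 ± 0.10 in the mean (limma adjusted p = 0.129), with 3 probes between -0.21 and -0.16, and under isoflurane its groups did not overlap (-1.70 to -1.57 with oil, -2.01 to -1.85 with BDCM) although the difference of -0.29 ± 0.14 missed the threshold (limma adjusted p = 0.146). It passed in the mean without CO2-O2 BDCM animal 3, at -0.26 (limma adjusted p = 0.0464), and with scan day as a block, at -0.32 (limma adjusted p = 0.0429), and without CO2-O2 BDCM animal 2 its CO2-O2 difference was 0.03. Npas2 differed by -0.33 ± 0.21 (limma adjusted p = 0.252) and passed without CO2-O2 oil animal 1, at -0.51 (limma adjusted p = 0.0396).

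**Figure D2:**
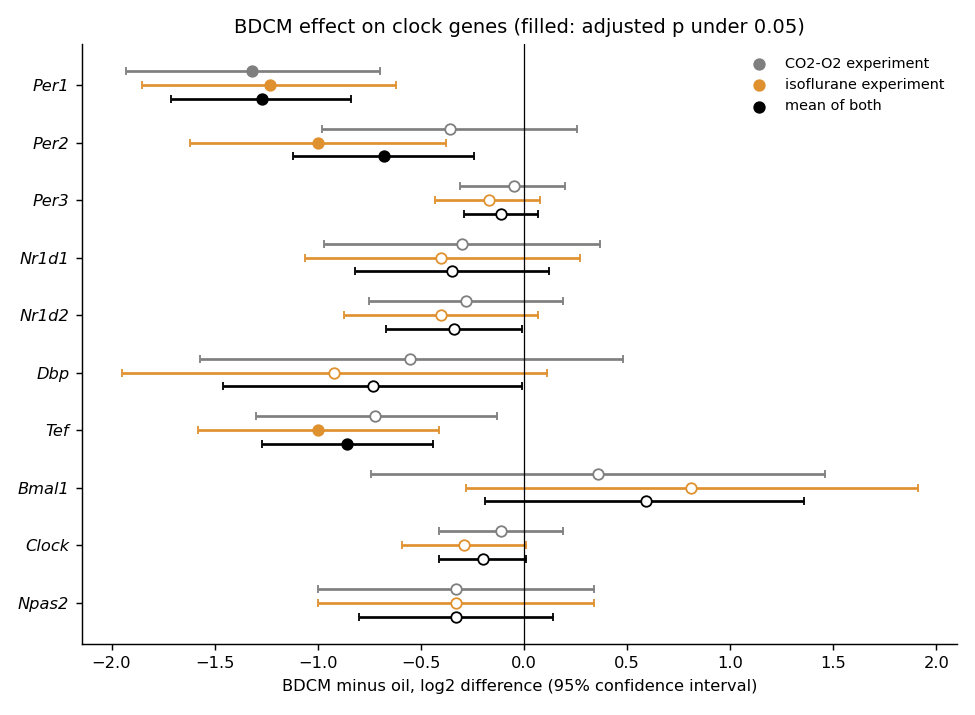
BDCM minus oil difference of each clock gene in log2 units (x axis), with 95% confidence intervals, in the CO2-O2 experiment, the isoflurane experiment and their mean. Filled points passed at an adjusted p of 0.05: Per1 in all 3 rows (-1.32, -1.23 and -1.27), and Per2 and Tef under isoflurane and in the mean.

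The BDCM effects of the 2 experiments did not differ past the threshold for any clock gene (0 of 10 genes, 0 of 24 probes), which does not show that they were equal. That test called 0% of all 43275 probes with limma at an adjusted p of 0.05, and 2125 probes (4.91%) had an unadjusted p under 0.05, so it had no calls anywhere on the array. With scan day as a block it called 25 probes, none of them of a clock gene. The differences of effect ranged from -0.64 for Per2 to 0.45 for Bmal1.

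Between the experiments, 1 clock gene passed. The brightest Per3 probe was higher in isoflurane oil animals (-1.21 to -0.92) than in CO2-O2 oil animals (-1.81 to -1.53), by 0.62 ± 0.11 (limma adjusted p = 0.00951), and higher in isoflurane BDCM animals by 0.50 ± 0.11 (limma adjusted p = 0.0174). This made 1 of 10 clock genes higher in each comparison, near the 6.96% of all probes in the controls and 11.1% in the BDCM groups, and the other 9 did not pass. The array-wide counts behind these shares were unsteady: in the controls 4582 probes passed in either direction, but 1818 without CO2-O2 oil animal 1 and 8132 with array weights, and in the BDCM groups 7077 passed, but 1214 with these groups fitted alone. The 4 dimmer Per3 probes did not pass, and the mean of all 5 probes differed by 0.32 in the controls (limma adjusted p = 0.566) and -0.16 in the BDCM groups (limma adjusted p = 0.757). A second Clock probe was higher by 0.51 ± 0.13 in the controls (limma adjusted p = 0.0302) and 0.45 ± 0.13 in the BDCM groups (limma adjusted p = 0.0367), which the probe that stands for Clock was not. The BDCM-group result of Per3 was lost without CO2-O2 BDCM animal 3 (0.47; limma adjusted p = 0.0561) or isoflurane BDCM animal 1 (0.45; limma adjusted p = 0.0558). Slides and scan days were never shared by the experiments, so anaesthesia, experiment, slide and scan day cannot be told apart here.

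The clock genes differed widely in how much animals of 1 group varied. The pooled within-group SD was 0.68 for Bmal1 and 0.63 for Dbp, larger than that of 96.6% and 96.0% of all probes tested, where the median SD was 0.17. Npas2, Nr1d1, Per2, Per1 and Tef followed with SDs of 0.41, 0.41, 0.38, 0.37 and 0.36. Nr1d2 had 0.28, Clock 0.17 and Per3 0.14, the last of which varied less than most probes.

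**Figure D3:**
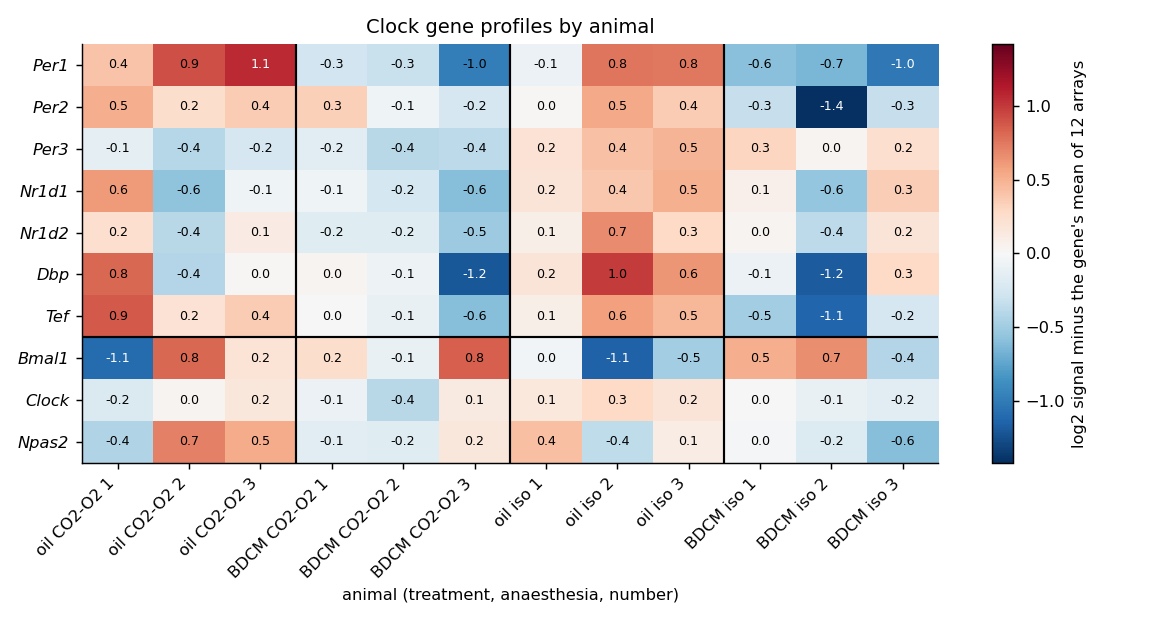
Log2 level of each clock gene minus that gene's mean of the 12 arrays (colour and printed value), by animal, with vertical lines between the 4 groups. The horizontal line separates genes driven by the activator complex from the activator genes Bmal1, Clock and Npas2. Animals with the highest Bmal1 have low Dbp, as in CO2-O2 BDCM animal 3 (Bmal1 level 0.62, Dbp level 4.15).

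This spread was ordered. The animals with the lowest Bmal1 were CO2-O2 oil animal 1 (-1.32) and isoflurane oil animal 2 (-1.38), and these 2 animals had the highest Dbp (6.16 and 6.34). The animals with the lowest Dbp were CO2-O2 BDCM animal 3 (4.15) and isoflurane BDCM animal 2 (4.18), where Bmal1 was 0.62 and 0.42. Low Dbp with high Bmal1 also occurred in a control, CO2-O2 oil animal 2 (4.93 and 0.58).

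Across the 12 animals Bmal1 and Dbp had a Pearson r of -0.90 (permutation p = 0.00011) and a Spearman rho of -0.93 (permutation p = 4e-05), and an r of -0.84 without the 2 animals farthest from the median Bmal1. Within the CO2-O2 experiment r was -0.90, and within the isoflurane experiment -0.89. After each group's mean was taken out, r was -0.86 (exact two-sided permutation within groups, p = 0.00386, or 0.0116 adjusted over the 9 relations computed), and 10 of 12 animals deviated in opposite directions. The pooled permutations, here and below, moved animals across groups, so their p-values mix treatment and experiment with animal-to-animal variation. Deviations cancel out within each group, so the 12 directions counted here and below are not independent of each other. These relations were chosen after the values were seen, and both genes of a pair share an array and its scaling.

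Nr1d1, Nr1d2 and Tef ran against Bmal1 in the same way. For Nr1d1 r was -0.88 (permutation p = 0.00031, adjusted 0.00093), rho was -0.89 (permutation p = 0.0003), and r was -0.87 without the 2 farthest animals and -0.85 for deviations from group means (exact permutation p = 0.0139, adjusted 0.025). For Nr1d2 these were -0.88 (permutation p = 0.0001, adjusted 0.000495), -0.92 (permutation p = 6e-05), -0.84 and -0.86 (exact permutation p = 0.00772, adjusted 0.0174). For Tef they were -0.72 (permutation p = 0.00852, adjusted 0.0192), -0.69 (permutation p = 0.016), -0.50 and -0.85 (exact permutation p = 0.00309, adjusted 0.0116). Each of the 3 genes had 10 of 12 animals deviating against Bmal1.

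The activator partner Npas2 went with Bmal1. Its deviations from group means had an r of 0.96 with those of Bmal1 (exact permutation p = 0.00231, adjusted 0.0116), and in all 12 animals both deviated the same way, while the pooled r was 0.57 (permutation p = 0.0527), rho was 0.57 (permutation p = 0.0586) and r was 0.39 without the 2 farthest animals. With group means left in, r for Npas2 was 0.74 within the CO2-O2 experiment and 0.30 within the isoflurane experiment. Clock had a pooled r of 0.00 and a rho of -0.07 (permutation p = 0.997 and 0.834), and r was 0.62 within the CO2-O2 experiment, -0.62 within the isoflurane experiment and 0.57 for deviations from group means (exact permutation p = 0.117, adjusted 0.132).

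Per1 stood apart from this pattern. Its deviations had an r of 0.03 with those of Bmal1 (exact permutation p = 0.942), with a pooled r of -0.34 and rho of -0.28 (permutation p = 0.28 and 0.381). With group means left in, r for Per1 was -0.17 within the CO2-O2 experiment and -0.66 within the isoflurane experiment. Per2 had an r of -0.54 for deviations (exact permutation p = 0.0556, adjusted 0.0833), with a pooled r of -0.53 and rho of -0.60 (permutation p = 0.072 and 0.0427, adjusted 0.108 and 0.0769). Per3 had -0.59 for deviations (exact permutation p = 0.0995, adjusted 0.128), with a pooled r of -0.49 and rho of -0.55 (permutation p = 0.104 and 0.066). So the member with the largest BDCM difference was the one whose animal-to-animal variation was least tied to Bmal1 within groups.

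**Figure D4:**
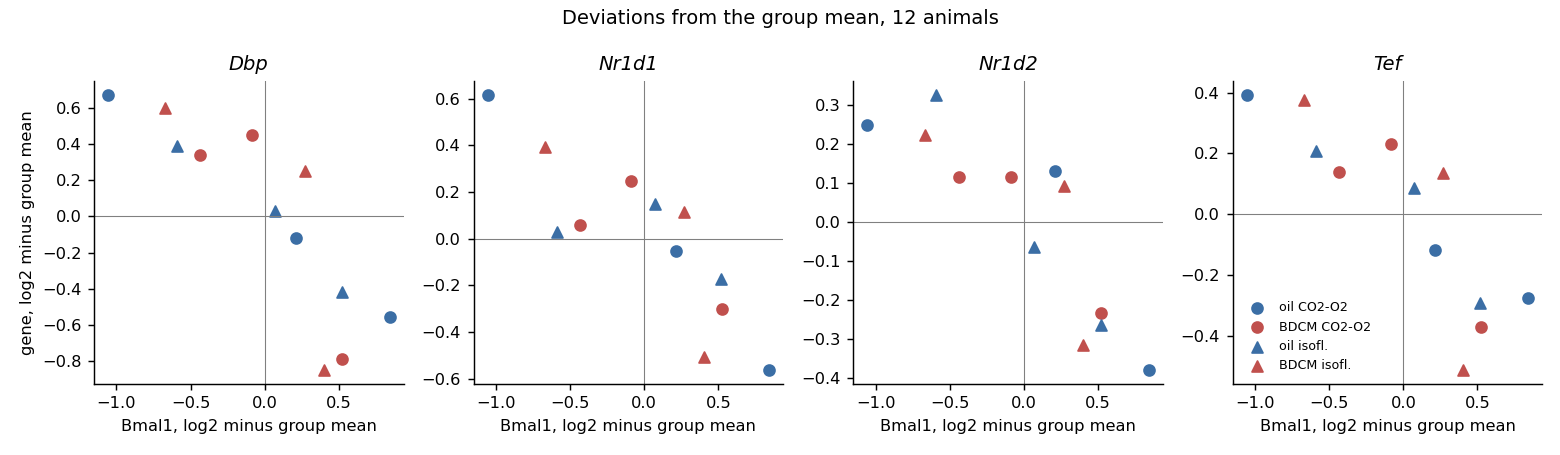
Deviation of each animal from its group mean for Bmal1 (x axis) and for Dbp, Nr1d1, Nr1d2 and Tef (y axes), in log2 units. Colours give treatment and symbols give anaesthesia. Points fall from upper left to lower right in each panel, with r of -0.86, -0.85, -0.86 and -0.85.

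Outside the 10 members, genes were ranked by the root mean square difference from Bmal1 or Dbp over the 12 arrays after centring. Nearest to Bmal1 were RGD1559600 (0.365), the neuropeptide FF receptor gene Npffr2 (0.396), Fam167a (0.400) and the histidine decarboxylase gene Hdc (0.417), where the median of 12198 genes was 0.700. Nearest to Dbp were the semaphorin gene Sema3e (0.301), Ppara, a nuclear receptor of fatty acid metabolism (0.315), the glycine acyltransferase gene Glyat (0.334) and the potassium channel subunit gene Kcnab1 (0.343), against a median of 0.684. Of the genes nearest Bmal1, 3 were higher with BDCM in the mean, RGD1559600 by 0.69 (limma adjusted p = 0.043), Npffr2 by 0.52 (limma adjusted p = 0.0448) and Fam167a by 0.80 (limma adjusted p = 0.0349), and Hdc at 0.26 did not pass (limma adjusted p = 0.136). Of those nearest Dbp, Glyat was lower by 0.66 in the mean (limma adjusted p = 0.0132), and Ppara (-0.56), Kcnab1 (-0.48) and Sema3e (-0.48) did not pass (limma adjusted p = 0.0763, 0.0901 and 0.166). Of all probes, 17.9% were higher and 20.4% lower in the mean. The ranking used the same 12 arrays with the BDCM differences left in. The directions of these neighbours therefore follow in part from their selection and are not separate evidence.

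The remaining genes of the clock were read from lists of repressors and transcription factors, turnover factors, co-regulators, renal outputs and hormone inputs. The list of repressors and transcription factors also held Timeless and Tipin, which are neither in the strict sense. Of its 8 genes tested, 4 were higher with BDCM in the mean and none was lower (list median 0.40, all probes -0.04, 17.9% of all probes higher). Timeless and Tipin were among these 4, so the count and the median do not describe clock repressors alone. Nfil3, which opposes DBP and TEF at D-boxes, had levels of -2.77, -1.89 and -2.59 with oil and -2.13, -1.62 and -1.07 with BDCM under CO2-O2, and -2.89, -3.27 and -2.91 against -2.23, -1.07 and -2.14 under isoflurane. It rose by 1.01 ± 0.25 (limma adjusted p = 0.0105), with overlap under CO2-O2 and none under isoflurane.

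Timeless rose by 0.86 ± 0.13 (limma adjusted p = 0.000737) and Tipin by 0.42 ± 0.06 (limma adjusted p = 0.000412). Their products form a complex at replication forks as well as touching the clock. Cry1, the repressor that partners PER proteins, had levels of -1.30, -1.22 and -1.76 with oil and -1.08, -0.66 and -0.89 with BDCM under CO2-O2, and -1.30, -1.41 and -1.62 against -0.95, -1.18 and -1.17 under isoflurane. It rose by 0.45 ± 0.11 (limma adjusted p = 0.0109) with no overlap in either experiment, whereas Cry2 differed by -0.22 ± 0.12 and did not pass (limma adjusted p = 0.183).

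Turnover and kinase genes moved in both directions. Usp2, a deubiquitinase of clock proteins and itself a clock output, fell by 0.52 ± 0.13 (limma adjusted p = 0.0111). The casein kinase gene Csnk1e rose by 0.25 ± 0.07 (limma adjusted p = 0.0184) and Nono by 0.15 ± 0.05 (limma adjusted p = 0.0276). Of 5 co-regulators, Parp1 (0.23) and Wdr5 (0.20) rose, and Ppargc1a, a coactivator of mitochondrial genes, fell by 0.27 ± 0.07 (limma adjusted p = 0.00848), beside 17.9% of all probes higher and 20.4% lower.

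Of 16 genes known to cycle in kidney or other tissues, 5 were lower and 1 was higher (list median -0.20), where 20.4% of all probes were lower and 17.9% higher. Tsc22d3, a glucocorticoid-induced gene, fell by 0.83 ± 0.20 (limma adjusted p = 0.00835). The sodium-proton exchanger gene Slc9a3 fell by 0.51 ± 0.16 (limma adjusted p = 0.0287), the vasopressin V2 receptor gene Avpr2 by 0.50 ± 0.09 (limma adjusted p = 0.00169) and the P450 reductase gene Por by 0.50 ± 0.11 (limma adjusted p = 0.00445). Nampt, the rate-limiting enzyme gene of NAD salvage, rose by 0.34 ± 0.07 (limma adjusted p = 0.00272).

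Of 13 genes of glucocorticoid and cyclic AMP input, 7 were lower and none higher (list median -0.44, 20.4% of all probes lower). Errfi1 fell by 0.98 ± 0.22 (limma adjusted p = 0.00532), the cyclic AMP responsive modulator gene Crem by 0.49 ± 0.09 (limma adjusted p = 0.00177), Nr4a1 by 0.47 ± 0.16 (limma adjusted p = 0.0434) and Hsd11b1, which regenerates active glucocorticoid, by 0.46 ± 0.11 (limma adjusted p = 0.00994). The glucocorticoid target Fkbp5 differed by -0.81 ± 0.33 (limma adjusted p = 0.0772), and Dusp1 by -0.07 ± 0.17.

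**Figure D5:**
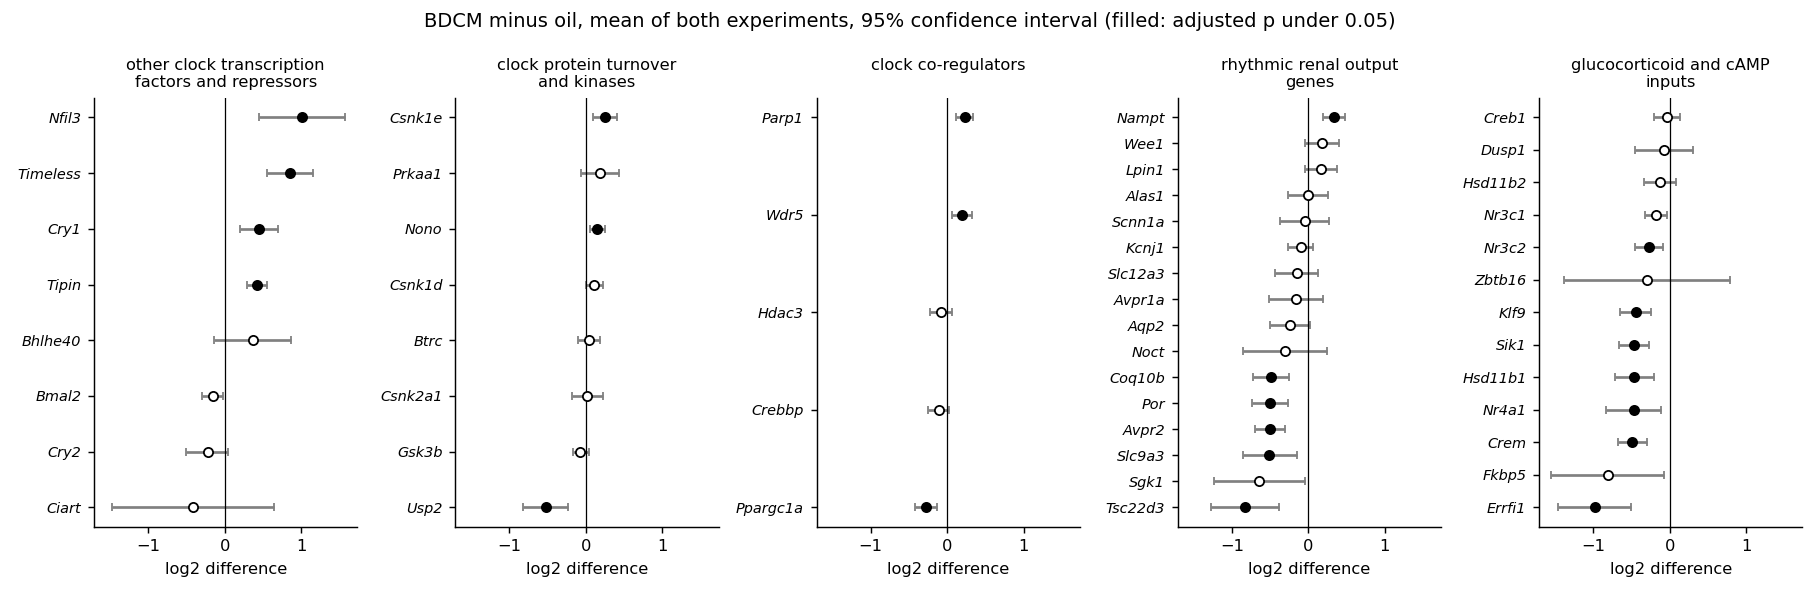
BDCM minus oil difference (x axis, log2 units, mean of both experiments) with 95% confidence intervals for genes of 5 clock-related lists. Filled points passed at an adjusted p of 0.05. In the first panel 4 of 8 genes passed, all higher (Nfil3 1.01, Timeless 0.86, Cry1 0.45, Tipin 0.42), and in the last panel 7 of 13 passed, all lower.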

How the data were processed

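Scanner files of 12 arrays hold intensity values (processed signal), which per the submitters' processing notes came from Feature Extraction 10.7 (Agilent), as deposited by the authors. The deposited value table holds a ratio, each signal over its array's 75th percentile, on a linear scale and uncentred (column medians 0.0999 to 0.112). Its 6 isoflurane columns equal their own scanner files and its 6 CO2-O2 columns equal those of another animal of the same group within 1%, so animals are numbered by scanner file and the table was an alternative.

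Accessions gave symbols through a RefSeq table of GRCr8 (27460 probes). Processed signal was divided by the array's 75th percentile over non-control probes and put on the log2 scale. Outlier spots (115 values) and 84 spike-in probes were left out. Probes well above background on all 3 arrays of a group (43275) entered a limma fit (version 3.58.1, R 4.3.3) with 1 mean per group, and with Benjamini-Hochberg adjustment and a threshold of 0.05. The 6 contrasts took BDCM against oil in either experiment, the mean and the difference of these effects, and isoflurane minus CO2-O2 for oil and for BDCM. On simulated data (43204 probes) 68.5, 85.5 and 97.5% of 1.5, 2 and 4-fold changes were recovered for the mean of both experiments. For 1.5 and 2-fold changes, recovery was 46.5 and 74% under CO2-O2 and 47.5 and 77% under isoflurane. The changed probes were drawn at random, so recovery at the larger within-group SDs of most clock genes was not measured. The simulation changed 200 probes of each fold size, while 16560 passed in the mean of both experiments in these data. Adjusted p depends on that share, so recovery in these data may differ. Permutations used scipy 1.17.1.

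Members and lists were chosen with earlier results of these data known. The text names all members, up to 4 passing genes per direction and list (Cry2, Fkbp5 and Dusp1 were added after their values were seen), and the 4 genes nearest Bmal1 and Dbp. Same-numbered animals did not deviate together (correlations -0.03 to 0.06). Alternatives changed scaling, background correction, filter, probe choice, model, blocks, threshold and animals. The number of arrays limits the precision. Listed genes with no matched probe were not analysed here, and 1 gene of the turnover list is not reported here.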

Additional observations from a re-analysis of the deposited data

How the results depend on the processing

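Over 30 alternatives for the mean of both experiments, Per1 passed in 30, Tef in 28 and Per2 in 26, all with negative differences. Under quantile or median scaling and normexp background the count of lower clock genes stayed at 1 under CO2-O2, 3 under isoflurane and 3 in the mean. With slide as a fixed block the counts of clock genes passing were 0 under CO2-O2, 0 under isoflurane and 1 in the mean, and with scan day as a block (added after seeing the data) 0 under CO2-O2, 3 under isoflurane and 4 in the mean, where Clock passed. The difference for Bmal1 under CO2-O2 was -0.08 with either block. With the mean of probes per gene, 0 passed between the oil controls and 0 between the BDCM groups, where Per3 was at -0.16. With the groups compared fitted alone, or at an adjusted p of 0.01, 0 passed between the BDCM groups, and at 0.01 1 passed under isoflurane. With 2-fold added, 1 passed in the mean, 0 between oil controls and 0 between BDCM groups. Without both isoflurane animals of highest albumin (added after seeing the data), 0 passed under isoflurane and 0 between BDCM groups, with Per1 at -1.18 (limma adjusted p = 0.0508). Leaving out 1 animal at a time gave 1 to 2 clock genes under CO2-O2, 1 to 3 under isoflurane, 3 to 4 in the mean, 0 for the difference, 1 between oil controls and 0 to 1 between BDCM groups. Under CO2-O2 the same exclusions moved Bmal1 from -0.17 (without oil animal 1) to 0.78, Per3 from -0.13 to 0.01, Nr1d1 from -0.58 to 0.01 and Clock from -0.23 to 0.03, none of them called. The cause of these changes was not tested. The replicate number as a block, which the data do not bear out as a pairing, left 1, 2 and 2 clock genes, with Per2 at -1.0 (limma adjusted p = 0.0626) under isoflurane and -0.68 (limma adjusted p = 0.0501) in the mean. Fixed blocks are nested in the experiments and gave no contrast between them; with slide as a random block 1 clock gene passed between oil controls and 1 between BDCM groups. Over all probes, lower counts than the main 8548, 11196 and 16560 came with the slide block (3819, 3253 and 10389), at 0.01 (3483, 5261 and 10260) and with 2-fold added (1592, 2720 and 2278).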
